A study of Homo sapiens with 6 samples.

Results

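Neurotransmitter receptor genes were compared between parental and onvansertib-resistant cells of H526, a line from small cell lung cancer. They were taken by symbol as protein-coding genes starting with CHRN, CHRM, GABR, GABBR, GRIA, GRID, GRIK, GRM, GLRA, GLRB, HTR or DRD, or with GRIN followed by 1, 2 or 3 and at most 1 letter. The rule gave 99 of the 20026 protein-coding genes, among 62710 rows in all. Of these, 94 were receptor genes and 5 were not, since the prefixes also caught the serine proteases HTRA1, HTRA2, HTRA3 and HTRA4 and the scaffold gene GRID2IP. A further 23 genes with these prefixes were not protein-coding and were left out.

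H526 cells were cultured in RPMI-1640 with 5% serum, and the resistant cells were raised from the same line under onvansertib, an inhibitor of the mitotic kinase PLK1, at doses that began at 10 nM and ended at 75 nM, in a culture kept for more than a year. Each group had 3 libraries, numbered 1 to 3 for parental and 7 to 9 for resistant cells, from RNA taken at 3 separate times. The model was thus 1 cell line and, as far as the labels state, 1 resistant population, with no untreated resistant cells and no acutely treated parental cells, so that presence of the drug and acquired resistance cannot be told apart. In bulk RNA, fewer expressing cells and less RNA per cell cannot be told apart either.

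Neurotransmitter receptors fall into channels that open when the transmitter binds and receptors that act through G proteins. The channels are assemblies of subunits from separate genes, so that conductance, affinity and surface expression depend on which subunits a cell makes together. Small cell lung cancers often have neuroendocrine features, and acetylcholine acting on nicotinic and muscarinic receptors is known to act on the growth of lung tumor cells.

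The values were gene counts normalized with DESeq2, in which 1 read was worth between 0.89 and 1.08 and the depth was about 22.2 to 28.5 M reads per library. The limit that a listing at 0 allows, 3 reads, lay at most at 2.94 in parental and 3.24 in resistant libraries, and covers counting error only. The tuft cell factor POU2F3, which defines the subtype of this line, had a value of 25809 ± 1178 (SD, n = 3) in parental and 27273 ± 535 in resistant cells, with an adjusted p of 0.304. Of the 10 genes of a tuft cell list, POU2F3 and CHAT among them, 9 were called, 6 higher and 3 lower, none of the 10 overlapped between groups, and the sums were 97380 to 100900 in parental and 94120 to 95220 in resistant libraries. All 6 tested genes of a list of 10 neuroendocrine markers were lower in resistant cells, where the list summed to 17790 to 18330 against 27290 to 28350, and 2 of the 10 were at 0 in all libraries. Of 7 fibroblast genes 4 were tested and 3 were higher, with sums of 156 to 197 in parental and 468 to 668 in resistant libraries. Of 6 endothelial genes 2 were tested and 1 was higher, with sums of 254 to 344 in parental and 469 to 510.1 in resistant libraries. Of 7 leukocyte genes 1 was tested and did not pass, and the sums overlapped. Over all genes tested 37.7% passed. The part of these shifts in the receptor values was not tested.

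Of the 99 members, 35 averaged 10 or more across the libraries and were tested, 32 of them receptors. Between groups, 24 of the 35 (68.6%) had an adjusted p under 0.05, 9 higher and 15 lower in resistant cells. Over all 16347 genes tested, 37.7% passed, 17.8% higher and 19.8% lower. The groups did not overlap in 25 members (71.4%), against 49.9% of all genes tested. A log2 fold change of more than 1 in either direction, on the log2(value + 1) scale used throughout, was reached by 22 called members (62.9%) and by 9.95% of all genes. The median log2 fold change of the 35 was -0.23 and its median size 1.21, against -0.00 and 0.30 over all genes tested. For the 32 receptors alone, 22 were called, 8 higher and 14 lower, with a median of -0.33.

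These counts describe only the members that reached the minimum mean, and 6 of them (GABBR1, GABBR2, GRIA2, DRD2, GRID1 and CHRNB4) reached it through 1 group, with the mean of the other under 10. Among the 29 members with both group means at or above 10, 20 were called and 18 of them (62.1%) had a log2 fold change past 1 in size, against 37.2% and 8.04% of the 15552 genes of that kind. The number of lower members was between 9 and 11 in place of 15 when any 1 library was left out. It was 9 without parental library 2 and without resistant library 9. Called members then numbered 18 to 20 in place of 24. The minimum mean set the edge of the tested members between CHRNB4, with a mean of 11.2, and GABRD, with a mean of 9.81.

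**Figure D1:**
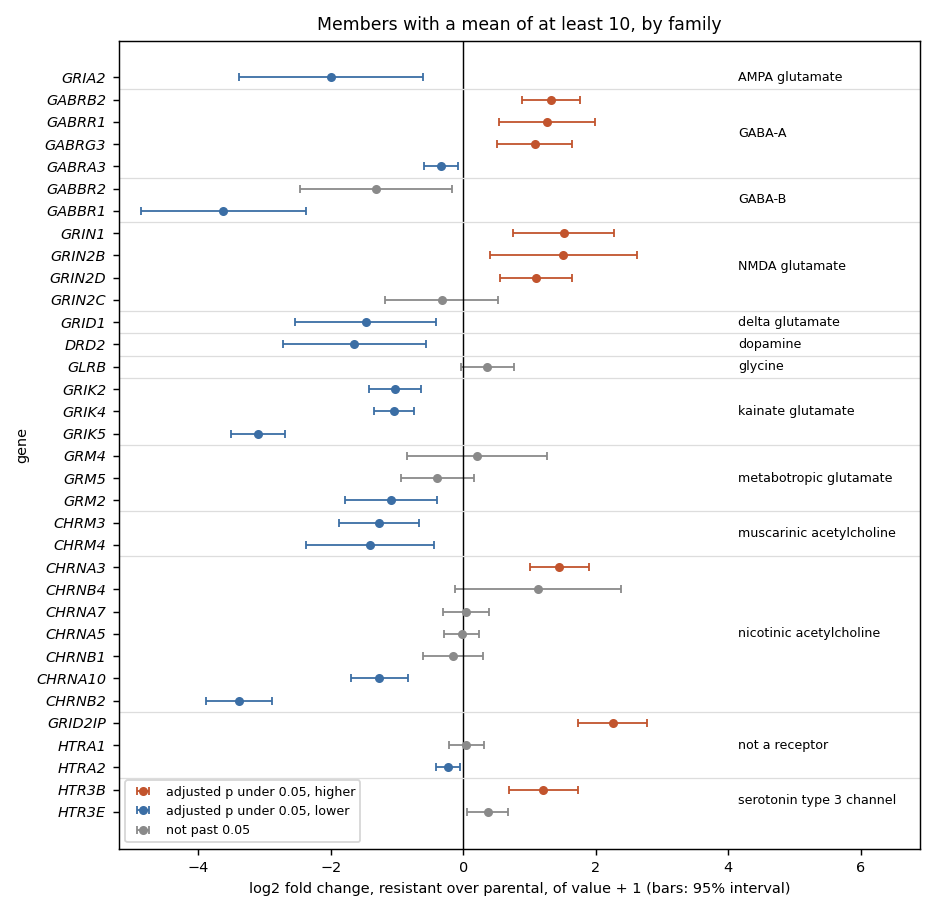
Log2 fold change of value + 1, resistant over parental, for 34 of the 35 members with a mean of at least 10, grouped by family; points are estimates and bars 95% intervals, colored by call at an adjusted p of 0.05. All 3 kainate members lie left of 0 and 3 of 4 NMDA members right of it, while the nicotinic and GABA-A families hold members on both sides.

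The nicotinic acetylcholine receptor genes, whose pentameric channels are opened by acetylcholine and nicotine, had 16 members, of which 7 were tested. 1 was higher and 2 were lower in resistant cells. Summed per kb of transcript, the family level was 684 ± 97.7 (SD, n = 3) in parental and 466 ± 41.4 in resistant cells, the highest of all receptor families in both groups. CHRNB2 (ENSG00000160716, chr1:154567778-154580013, plus strand, GRCh38) encodes the beta-2 subunit, which pairs with alpha subunits in most nicotinic receptors of the brain. Its values were 1161, 882 and 771 in parental and 79.2, 68.4 and 123 in resistant libraries. Every resistant library lay far under every parental one. The mean fell from 938 ± 201 to 90.2 ± 29.0, 10.4-fold lower (log2 fold change -3.39, SE 0.22, adjusted p = 3.67e-06). CHRNB2 shares 5.46% of its exonic bases with an antisense transcript, whose reads the library kit cannot tell apart.

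The CHRNB2 promoter was examined as 250 bases before the RefSeq start, since it carries the change with the second smallest p among the receptors. The window lies at chr1:154567528-154567777 (GRCh38.p14, plus strand), holds 60.4% G and C, and is printed 5′ to 3′ from RefSeq. Letters in capitals, here and in the other windows, mark a match on either strand to GGGCGG (GC box), CAGCTG (E-box), TGACG (part of the cyclic AMP response element), CAGCACC (left part of the RE1 element that REST binds) or ATGCAAAT (octamer of POU2F factors). CHRNB2 holds no match to any of the 5, which says only that these letters are not in the window.
CHRNB2: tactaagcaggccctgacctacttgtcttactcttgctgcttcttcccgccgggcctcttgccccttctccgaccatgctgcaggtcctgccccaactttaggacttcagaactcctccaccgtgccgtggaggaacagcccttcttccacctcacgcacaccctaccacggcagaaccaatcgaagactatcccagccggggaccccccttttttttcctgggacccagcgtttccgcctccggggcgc

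CHRNA10, the alpha-10 subunit known from cochlear hair cells, had values of 392, 243 and 308 in parental and 149, 115 and 121 in resistant libraries. The groups did not overlap, and the mean fell from 314 ± 74.7 to 128 ± 18.2, 2.45-fold lower (log2 fold change -1.27, SE 0.19, adjusted p = 0.000649). It shares 133 exonic bases, 4.92% of its exons, with NUP98 on the same strand, so the split of reads of the shared stretch is uncertain. CHRNA9, its partner in hair cells, was at or under 3 reads in all 6 libraries.

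CHRNA3 (ENSG00000080644, chr15:78593052-78621295, minus strand) encodes the alpha-3 subunit of ganglionic receptors. Its values were 42.5, 50.3 and 45.7 in parental and 116, 128 and 139.9 in resistant libraries. All resistant libraries were well above all parental ones, with a mean of 46.2 ± 3.93 against 128 ± 12.04, 2.77-fold higher (log2 fold change 1.45, SE 0.20, adjusted p = 0.000357). CHRNA5, its neighbor on the opposite strand and an accessory subunit, shares 198 exonic bases with CHRNA3 and 832, 23% of its exons, with an antisense transcript, whose reads the library kit cannot tell apart. The 198 bases are 4.16% of the exons of CHRNA3, so the split of their reads is uncertain for the level and fold of CHRNA3 too. CHRNA5 was the most abundant nicotinic member per kb, at 248 in parental and 243 in resistant cells on the per-kb scale. CHRNA3 was at 15.3 and 42.4 on that scale. Its values were 1031, 904 and 762 in parental and 930.2, 791 and 922 in resistant libraries, with overlapping groups. The log2 fold change was -0.02 with a 95% interval of -0.29 to 0.24 (adjusted p = 0.901). CHRNB4, which pairs with the alpha-3 subunit in ganglia, had values of 7.73, 2.61 and 10.4 in parental and 13.2, 9.79 and 23.3 in resistant libraries. Its log2 fold change was 1.12, with an interval of -0.13 to 2.38 and an adjusted p of 0.144, and the groups overlapped.

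CHRNA5, CHRNA3 and CHRNB4 lie next to each other on 15q25, a region known for its association with smoking and lung cancer. Of 14 other tested protein-coding genes within 500 kb, 12 were called, 11 of them higher, with a median log2 fold change of 0.60. Values ran from -2.07 in DNAJA4 to 4.68 in ADAMTS7, the gene next to CHRNB4. ADAMTS7 had a mean of 0.205 in parental cells, under 1 read, and 29.7 in resistant cells, so the size of its change depends on the pseudocount. The tested genes nearest to CHRNA3, 51 in all, had a median log2 fold change of 0.44. When that local median was subtracted, CHRNA3 kept a log2 fold change of 1.00 (adjusted p = 0.00589) and CHRNA5 moved to -0.44 (adjusted p = 0.0178). Around CHRNB2 the local median was 0.01.

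**Figure D2:**
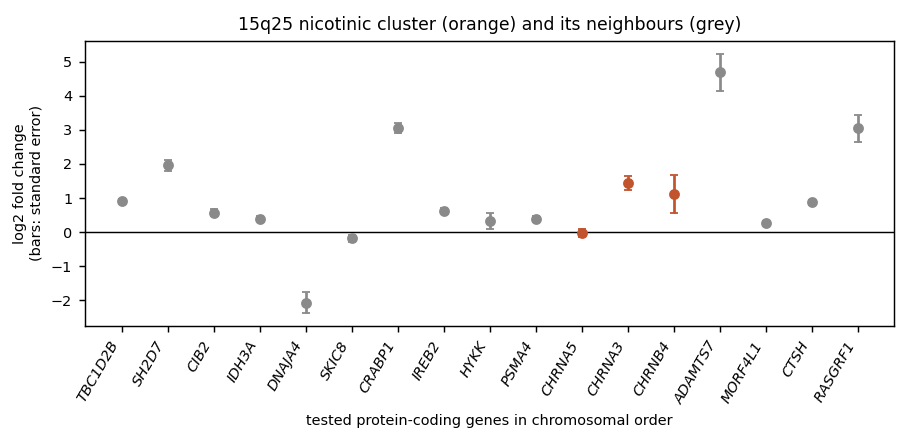
Log2 fold change of value + 1 (resistant over parental) of tested protein-coding genes within 500 kb of the 15q25 nicotinic genes, in chromosomal order; points are estimates, bars standard errors, orange points the 3 nicotinic genes and grey points the 14 others. CHRNA5 lies at -0.02 between neighbors that are mostly above 0, and CHRNA3 and CHRNB4 lie at 1.45 and 1.12.

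CHRNA7, which forms channels from alpha-7 subunits alone, had values of 359.6, 464 and 395 in parental and 372, 372 and 520.4 in resistant libraries. The groups overlapped, with a log2 fold change of 0.04 and an interval of -0.31 to 0.39 (adjusted p = 0.860). The partial copy CHRFAM7A is nearly identical in sequence, so the split of reads between the 2 genes is uncertain. CHRNB1, the beta subunit of the muscle receptor, had 113, 124 and 86.8 in parental and 107, 88.7 and 91.6 in resistant libraries (log2 fold change -0.16, interval -0.61 to 0.29, adjusted p = 0.574). CHRNB1 shares 14.5% of its exonic bases with a noncoding transcript on the same strand, so the split of those reads is uncertain.

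As a share of the family's per-kb sum, CHRNB2 went from 23.3% ± 1.62 (SD, n = 3) to 3.28% ± 0.83 and CHRNA10 from 23.6% ± 3.85 to 14.2% ± 1.70. CHRNA5 went from 36.3% ± 1.75 to 52.2% ± 1.07, although its own value was near level. CHRNA3 went from 2.28% ± 0.44 to 9.15% ± 1.09. In each of these 4 genes the shares of the 2 groups did not overlap. These shares are descriptions without a test.

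**Figure D3:**
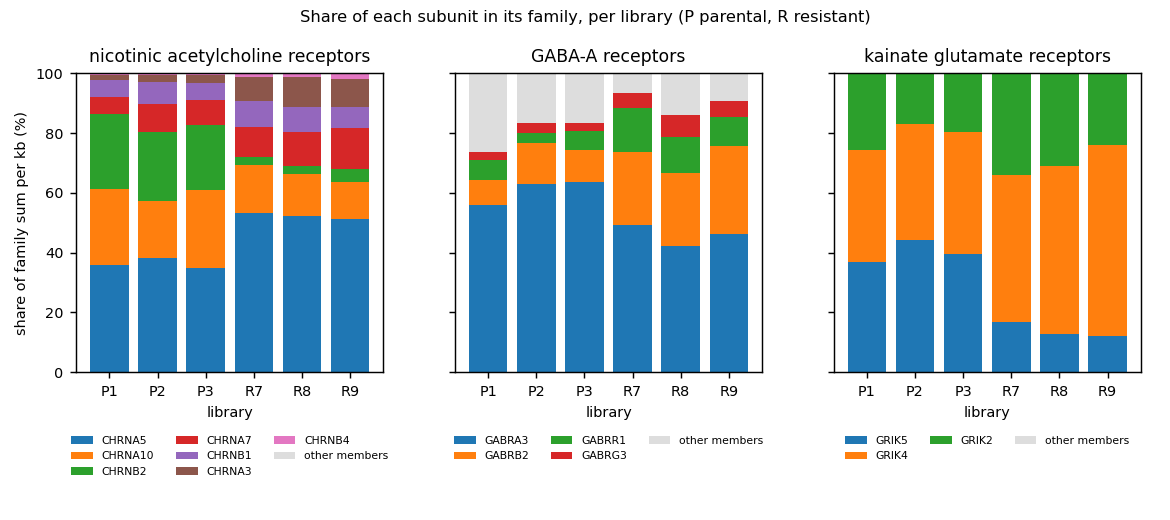
Share of each subunit in the per-kb sum of its family (%), per library, for nicotinic, GABA-A and kainate genes; stacked bars are libraries, P parental and R resistant. CHRNB2 takes 23.3% in parental and 3.28% in resistant cells on average, GABRB2 10.98% and 26.0%, and GRIK5 40.2% and 13.9%.

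Muscarinic acetylcholine receptors, which act through G proteins, had 5 members and 2 tested, both lower. CHRM3, which couples to Gq and calcium release, had values of 185, 137 and 173 in parental and 66.6, 45.8 and 99.3 in resistant libraries. The groups did not overlap, and the mean fell from 165 ± 25.04 to 70.6 ± 27.01, 2.34-fold lower (log2 fold change -1.27, SE 0.27, adjusted p = 0.00477). CHRM4, which couples to Gi, had 25.3, 64.1 and 22.1 in parental and 10.6, 12.1 and 13 in resistant libraries. Parental library 2 stood above the rest, and the groups did not overlap (log2 fold change -1.41, SE 0.44, adjusted p = 0.0282). Without parental library 2 the adjusted p of CHRM4 was 0.106, and without resistant library 7, 8 or 9 it was 0.0698, 0.0647 and 0.0506. With no filter on low values it was 0.0562.

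GABA-A receptors are chloride channels opened by gamma-aminobutyric acid (GABA). Of 19 genes 5 were tested, and 3 were higher and 2 lower in resistant cells. The family sum per kb was 176 ± 17.3 (SD, n = 3) in parental and 183 ± 3.64 in resistant cells. GABRB2 (ENSG00000145864, chr5:161288429-161549044, minus strand), a beta subunit, had values of 113, 188 and 125 in parental and 321, 332 and 400.3 in resistant libraries. All resistant values were above all parental ones, and the mean went from 142 ± 40.3 to 351 ± 43.1, 2.47-fold higher (log2 fold change 1.33, SE 0.20, adjusted p = 0.000563).

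GABRG3, a gamma subunit, had 54.5, 68.4 and 41.3 in parental and 94.98, 145 and 108 in resistant libraries. The groups did not overlap, and its mean was 54.7 ± 13.6 against 116 ± 26.2, 2.12-fold higher (log2 fold change 1.08, SE 0.26, adjusted p = 0.00794). Of its exonic bases, 8.61% are shared with an antisense transcript, which the library kit cannot tell apart. GABRR1, the rho-1 subunit, had 39.1, 17.97 and 30.9 in parental and 82.5, 70.4 and 55.4 in resistant libraries. Its groups did not overlap, with a mean of 29.3 ± 10.7 against 69.4 ± 13.6, 2.37-fold higher (log2 fold change 1.26, SE 0.33, adjusted p = 0.0123). The GABRR1 call was kept only narrowly without resistant library 7 or 8, at an adjusted p of 0.05 after rounding and 0.0426.

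GABRA3, an alpha subunit and the most abundant GABA-A member per kb, had 382, 428 and 363 in parental and 324, 289 and 314 in resistant libraries. Parental and resistant values did not overlap but lay close together, with a mean of 391 ± 33.5 against 309 ± 18.4, 1.27-fold lower (log2 fold change -0.34, SE 0.12, adjusted p = 0.0459). This call was lost when any single library was left out, with an adjusted p of 0.0727, 0.137 and 0.0606 without parental libraries 1, 2 and 3 and of 0.0666, 0.138 and 0.0858 without resistant libraries 7, 8 and 9. With local centring its adjusted p was 0.168, and with no filter 0.0633. As a share of the family sum per kb, GABRA3 went from 60.8% ± 4.25 (SD, n = 3) to 46.0% ± 3.55 and GABRB2 from 10.98% ± 2.77 to 26.0% ± 2.98. GABRA6, a neighbor of GABRB2 on 5q34, was under a mean of 10.

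GABA-B receptors are pairs of the ligand-binding subunit GABBR1 and the G protein-coupling subunit GABBR2, and both had lower values in resistant cells. GABBR1 (ENSG00000204681, chr6:29555629-29633976, minus strand) had values of 41.0, 62.2 and 41.3 in parental and 0.686, 3.71 and 6.60 in resistant libraries. All parental libraries were far above all resistant ones, and the mean fell from 48.2 ± 12.2 to 3.67 ± 2.96, 13.1-fold lower (log2 fold change -3.62, SE 0.56, adjusted p = 0.000712). The lowest resistant library, 7, was under 3 reads, and without it the log2 fold change was -3.01 (adjusted p = 0.000891). The size also depended on the pseudocount, with -4.12 at 0.1 and -2.09 at 10. GABBR1 shares 722 exonic bases, 8.54% of its exons, with UBD and OR2I1P. GABBR2 had 15.5, 21.9 and 21.5 in parental and 2.94, 10.4 and 11.4 in resistant libraries. Its groups did not overlap and 1 resistant library was under 3 reads, but the adjusted p was 0.0693 (log2 fold change -1.31, interval -2.46 to -0.17). The genes around GABBR2 had a median log2 fold change of -0.93, and after local centring its own was -0.38 (adjusted p = 0.586).

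Kainate receptors are glutamate-gated cation channels, and all 3 tested members of the 5 were lower in resistant cells. The family sum per kb went from 365 ± 50.5 (SD, n = 3) to 122 ± 2.47, with no overlap between groups. GRIK5 (ENSG00000105737, chr19:41998321-42070206, minus strand) encodes a high-affinity subunit that needs another kainate subunit to form a channel. Its values were 603, 828 and 561 in parental and 90.4, 71.2 and 67.9 in resistant libraries. The groups lay far apart, and the mean fell from 664 ± 144 to 76.5 ± 12.2, 8.68-fold lower (log2 fold change -3.09, SE 0.18, adjusted p = 2.08e-06), the smallest adjusted p of all members. The genes around GRIK5 had a median log2 fold change of -0.09.

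The promoter window of GRIK5, shown because this gene had that smallest p, lies at chr19:42070207-42070456 (GRCh38.p14, minus strand) and holds 66.8% G and C. It contains 2 GC box matches, 1 on each strand, a motif found in 42.6% of all 35116 RefSeq promoter windows.
GRIK5: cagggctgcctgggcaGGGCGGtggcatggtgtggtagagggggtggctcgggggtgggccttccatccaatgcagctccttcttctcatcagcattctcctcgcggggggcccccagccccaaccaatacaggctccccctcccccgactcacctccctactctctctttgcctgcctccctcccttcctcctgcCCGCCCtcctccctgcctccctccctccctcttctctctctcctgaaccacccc

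GRIK4, the other high-affinity subunit, had 796, 937 and 747 in parental and 341, 402 and 461 in resistant libraries. No overlap was seen between groups, and the mean fell from 827 ± 98.6 to 401 ± 59.95, 2.06-fold lower (log2 fold change -1.05, SE 0.13, adjusted p = 0.000209). GRIK2, which forms channels by itself, had 619, 467 and 411 in parental and 272, 253 and 200.1 in resistant libraries. Its groups did not overlap either, with a mean of 499 ± 108 against 242 ± 37.4, 2.06-fold lower (log2 fold change -1.03, SE 0.17, adjusted p = 0.00115). As a share of the family sum per kb, GRIK5 went from 40.2% ± 3.77 to 13.9% ± 2.52 and GRIK4 went from 39.0% ± 1.62 to 56.3% ± 7.38.

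NMDA receptors, glutamate channels that pass calcium, had higher members and none lower. Of 7 members 4 were tested and 3 were higher, and the family sum per kb was 25.2 ± 5.30 (SD, n = 3) in parental and 49.0 ± 5.41 in resistant cells. GRIN1, the subunit that every NMDA receptor needs, had 12.7, 16.8 and 22.3 in parental and 37.7, 49.1 and 67.6 in resistant libraries. All parental and resistant values were apart, with a mean of 17.3 ± 4.84 against 51.5 ± 15.1, 2.98-fold higher (log2 fold change 1.52, SE 0.34, adjusted p = 0.00628). GRIN2D, a glutamate-binding subunit, had 56.2, 94.3 and 70.8 in parental and 123, 195 and 156 in resistant libraries. Its groups did not overlap, with a mean of 73.7 ± 19.2 against 158 ± 35.8, 2.14-fold higher (log2 fold change 1.10, SE 0.25, adjusted p = 0.00590).

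GRIN2B, another glutamate-binding subunit, had 117, 25.7 and 34.1 in parental and 203, 134 and 91.6 in resistant libraries. Parental library 1 lay above resistant library 9, so the groups overlapped, with a log2 fold change of 1.51 (SE 0.50, adjusted p = 0.0373). Without parental libraries 2 or 3 the adjusted p of GRIN2B was 0.115 and 0.119, and without resistant libraries 7 or 8 it was 0.123 and 0.0880. Without parental library 1 the log2 fold change was 2.15 (adjusted p = 0.00207). The call was also lost with quantile normalization (0.0673), without the intensity trend (0.117) and with local centring (0.0549). GRIN2C had 22.8, 53.2 and 29.8 in parental and 37.0, 23.3 and 20.9 in resistant libraries, with overlapping groups (log2 fold change -0.33, interval -1.18 to 0.53, adjusted p = 0.538). GRIN2A was at 0 in all 6 libraries.

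Among the other glutamate channels, GRIA2, the AMPA subunit that limits calcium entry, was the tested member of 4. It had 9.16, 21.7 and 44.9 in parental and 8.70, 3.10 and 3.15 in resistant libraries. Both ranges were separate by a small margin, the parental values spread widely, and 2 resistant libraries were at or under 3 reads (log2 fold change -2.00, SE 0.62, adjusted p = 0.0288). The call was lost without parental library 2 and without resistant libraries 8 and 9, at an adjusted p of 0.0682, 0.0867 and 0.0764, and without the intensity trend, at 0.0606. Without parental library 3 GRIA2 was under the minimum mean and was not tested, and with a pseudocount of 10 its log2 fold change was -1.12. GRID1, a delta subunit, had 27.7, 22.0 and 11.8 in parental and 4.17, 6.93 and 8.65 in resistant libraries, without overlap (log2 fold change -1.47, SE 0.48, adjusted p = 0.0344). Without parental libraries 1 or 2 its adjusted p was 0.115 and 0.0915, and without resistant libraries 7 or 8 it was 0.0974 and 0.0680. With no filter it was 0.0682, and with a pseudocount of 10 the log2 fold change was -0.85.

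Metabotropic glutamate receptors act through G proteins, and 3 of 8 were tested. GRM2, which couples to Gi, had 43.8, 36.5 and 40.3 in parental and 15.7, 24.5 and 15.8 in resistant libraries. There was no overlap between groups, and the mean fell from 40.2 ± 3.67 to 18.7 ± 5.06, 2.15-fold lower (log2 fold change -1.09, SE 0.31, adjusted p = 0.0201). The adjusted p was 0.0587 and 0.0576 without parental libraries 1 and 3 and 0.0594 and 0.0591 without resistant libraries 7 and 9, and it was 0.0513 with no filter. GRM5, which couples to Gq, had 112, 167 and 85.2 in parental and 85.6, 95.2 and 85.7 in resistant libraries, with overlapping groups (log2 fold change -0.39, interval -0.94 to 0.16, adjusted p = 0.241). Antisense GRM5-AS1 covers 50.2% of its exonic bases. GRM4 had 7.15, 20.3 and 9.02 in parental and 10.7, 16.5 and 12.1 in resistant libraries (log2 fold change 0.21, interval -0.86 to 1.27, adjusted p = 0.767).

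Serotonin type 3 receptors are the channel form of the serotonin receptors, and 2 of 5 members were tested. The family sum per kb went from 132 ± 15.5 (SD, n = 3) to 214 ± 6.80. HTR3B (ENSG00000149305, chr11:113904796-113949079, plus strand) had values of 156, 278 and 145 in parental and 506, 424 and 365 in resistant libraries. No library crossed to the range of the other group, with a mean of 193 ± 74.2 against 432 ± 70.6, 2.24-fold higher (log2 fold change 1.21, SE 0.23, adjusted p = 0.00268). HTR3A, the subunit that HTR3B is known to need for a channel, was at or under 3 reads in all 6 libraries. HTR3E had 187, 186 and 193 in parental and 223, 233 and 278 in resistant libraries. Its groups did not overlap, but the adjusted p was 0.0641 (log2 fold change 0.37, interval 0.05 to 0.68). HTR3E shares 7.45% of its exonic bases with antisense HTR3E-AS1, whose reads the library kit cannot tell apart.

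The windows of HTR3B and HTR3E are shown because they were the 2 receptor promoters with an octamer match, the motif of POU2F factors, found in 1.63% of all RefSeq windows. HTR3B lies at chr11:113904546-113904795 (plus strand) and holds an octamer match, a TGACG match and an RE1 left part match. HTR3E lies at chr3:184099929-184100178 (plus strand) and holds 1 octamer match. That window is before a RefSeq start but inside the Gencode gene, which begins at 184097064. The octamer in both is written on the opposite strand, and the HTR3B octamer and RE1 letters adjoin without overlap.
HTR3B: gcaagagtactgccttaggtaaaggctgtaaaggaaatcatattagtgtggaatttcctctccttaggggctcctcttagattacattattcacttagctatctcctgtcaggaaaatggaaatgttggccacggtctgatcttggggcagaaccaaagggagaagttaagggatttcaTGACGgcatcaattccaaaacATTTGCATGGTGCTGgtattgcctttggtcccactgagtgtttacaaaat
HTR3E: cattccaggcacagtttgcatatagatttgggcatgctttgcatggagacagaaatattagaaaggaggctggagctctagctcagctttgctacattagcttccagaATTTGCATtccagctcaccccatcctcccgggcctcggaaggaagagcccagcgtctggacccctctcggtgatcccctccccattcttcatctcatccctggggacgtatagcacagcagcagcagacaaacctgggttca

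Across the receptor promoters, 25 of the 32 tested receptors had a window in RefSeq, 7 of them higher, 10 lower and 8 not called. For each receptor only the first window listed was used, while the shares of all windows count every window, so the sets are unlike. A GC box was held by 4 of 7 higher, 5 of 10 lower and 5 of 8 uncalled genes. RE1 left part matches were in 3 of 7 higher genes (GRIN2B, CHRNA3 and HTR3B), 1 of 10 lower genes (GRM2) and 0 of 8 uncalled genes, against 6.16% of all windows. An E-box was held by 1, 2 and 1 of these genes, against 14% of all windows, and TGACG by 1, 1 and 3, against 21.2%. The windows of the 25 receptors held a median of 66.0% G and C, with 63.6% for higher and 67.4% for lower genes, against 58.0% over all windows. The windows of CHRNA3 and GABRB2, the higher receptors with the smallest p, overlap Gencode v44 exons of the same gene. They are counted here but were not printed for that reason. Windows that were not candidates for printing were not checked for such overlap. These counts are descriptions of short letter runs and carry no test.

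Serotonin receptors that act through G proteins had 12 members and none was tested. DRD2, the dopamine receptor that couples to Gi, was the tested member of 5, with 33.3, 24.7 and 18.7 in parental and 11.6, 9.18 and 3.45 in resistant libraries. Parental and resistant values did not overlap, and the mean fell from 25.6 ± 7.29 to 8.07 ± 4.18, 3.17-fold lower (log2 fold change -1.64, SE 0.49, adjusted p = 0.0228). The adjusted p of DRD2 was 0.0823 and 0.0538 without parental libraries 1 and 2, and 0.0641 without resistant library 9. With a pseudocount of 10 its log2 fold change was -0.99. DRD2 and HTR3B lie in one 11q23 neighborhood and moved in opposite directions. GLRB, the beta subunit of glycine receptors, was the tested member of 4, with 162, 207 and 169 in parental and 196, 213 and 288 in resistant libraries (log2 fold change 0.36, interval -0.04 to 0.76, adjusted p = 0.143).

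**Figure D4:**
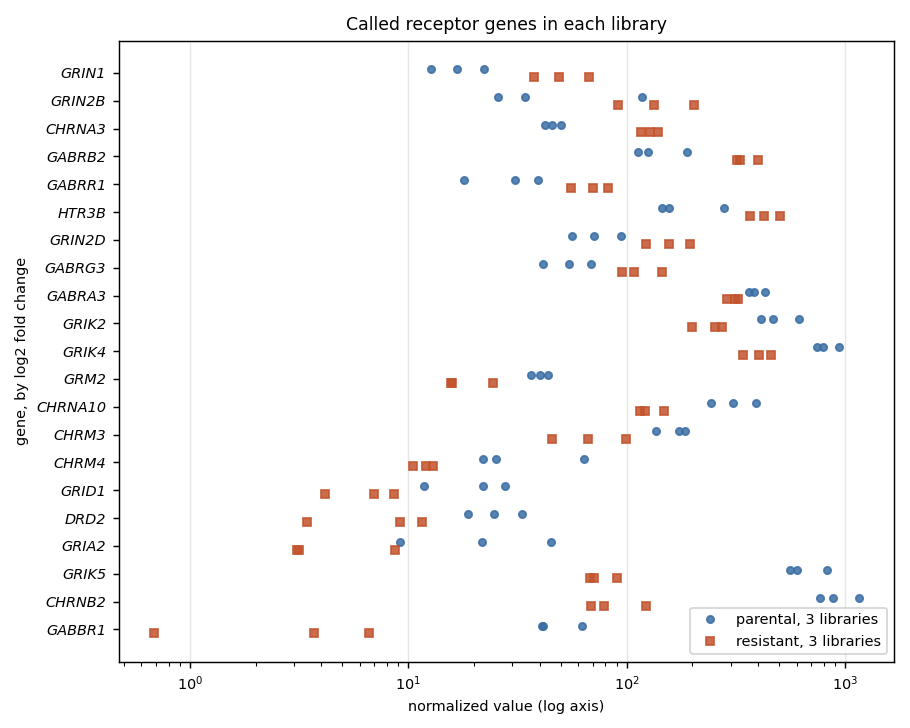
DESeq2-normalized values on a log axis of 21 of the 22 called receptor genes in each of 3 parental (circles) and 3 resistant (squares) libraries, ordered by log2 fold change. GRIN2B is the gene in which a parental library, at 117, lies above a resistant one, at 91.6.

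Of the members that are not receptors, GRID2IP, a scaffold of glutamate receptors, had 31.2, 34.5 and 28.2 in parental and 118, 174 and 174 in resistant libraries. The groups lay far apart, with a mean of 31.3 ± 3.18 against 155 ± 32.4, 4.96-fold higher (log2 fold change 2.26, SE 0.24, adjusted p = 6.03e-05). HTRA1 had a log2 fold change of 0.05 (interval -0.22 to 0.31, adjusted p = 0.790). HTRA2, a mitochondrial protease, had 963, 961 and 897 in parental and 818, 774 and 817 in resistant libraries. It shares 27.5% of its exonic bases with LOXL3 and 4.85% with AUP1, both on the opposite strand, which the library kit cannot tell apart. Its values did not overlap between groups, and the mean fell from 940.3 ± 37.3 to 803 ± 25.3 (log2 fold change -0.23, SE 0.08, adjusted p = 0.0490). Its adjusted p was between 0.0695 and 0.138 when any single library was left out, and between 0.0529 and 0.270 with no filter, median ratio scaling, quantile normalization, no trend or local centring.

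The other 64 members were under a mean of 10 and were not tested, 62 of them receptors. In all 6 libraries 17 were at 0, namely CHRNA1, CHRNA2, CHRNB3, CHRND, DRD3, GABRA4, GABRG1, GABRP, GABRR3, GRIA3, GRIK1, GRIN2A, HTR1A, HTR1F, HTR2A, HTR3D and HTRA4. A further 18 were at or under 3 reads in every library, among them CHRM2, CHRNA4, CHRNA6, CHRNA9, CHRNE, DRD5, GABRA6, GLRA1, GRIA1, GRM6, HTR1B, HTR1E, HTR2B, HTR2C, HTR3A, HTR3C and HTR7. The remaining 29 passed 3 reads in at least 1 library. Among them were CHRM1, CHRM5, CHRNG, DRD1, DRD4, GABRA2, GABRA5, GABRB1, GABRD, GABRE, GABRQ, GABRR2, GLRA2, GLRA3, GRIA4, GRIK3, GRIN3A, GRIN3B, GRM3, GRM7, GRM8, HTR1D, HTR4, HTR5A, HTR6 and HTRA3.

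Some of these had 1 group wholly above 3 reads and the other wholly at or under it. GABRQ, a GABA-A subunit, had 8.92, 10.7 and 12.8 in parental and 0, 1.04 and 0 in resistant libraries. Its parental mean was 3.41 times the mean resistant limit of 3.17. GLRA3, a glycine receptor alpha subunit, had 7.79, 7.35 and 7.45 in parental libraries and was listed at 0 in all resistant ones. Its parental mean was 2.38 times that limit. CHRM1, a muscarinic receptor that couples to Gq, had 0, 0 and 1.65 in parental and 5.27, 14.5 and 8.38 in resistant libraries. Its resistant mean was 3.31 times the mean parental limit of 2.84. These are values at a few reads each, and the ratios to the limit leave out the spread of the higher group.

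Genes that work with the receptors were taken in 4 lists. Of 33 genes for receptor accessory and assembly proteins, 23 were tested and 11 were called, 6 higher and 5 lower, with a median log2 fold change of -0.03. CACNG8, an AMPA receptor auxiliary subunit, was at 12.1 ± 2.90 (SD, n = 3) in parental and 113 ± 5.59 in resistant cells (log2 fold change 3.15, adjusted p = 2.19e-05). CNIH3, another AMPA receptor partner, went from 88.95 ± 7.90 to 338 ± 68.0 (1.89, adjusted p = 3.86e-05). LHFPL4, which GABA-A receptors need at inhibitory synapses, had 281, 571 and 178 in parental and 1.31, 3.93 and 4.75 in resistant libraries, a log2 fold change of -6.25 (SE 0.48, adjusted p = 8.50e-06), and 1 resistant library was at or under 3 reads. SHISA7, an auxiliary subunit of GABA-A receptors, fell from 167 ± 22.0 to 23 ± 1.48 (-2.80, adjusted p = 1.02e-05).

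Of 51 postsynaptic scaffold and clustering genes, 35 were tested and 16 called, 8 in each direction, with a median of -0.05. DLG2 rose from 955 ± 37.6 to 2354 ± 149 (log2 fold change 1.299, adjusted p = 1.99e-06) and HOMER3 from 113 ± 33.3 to 238 ± 11 (1.11, adjusted p = 0.00201). DLGAP3 fell from 603 ± 71.0 to 158 ± 11.5 (-1.92, adjusted p = 4.50e-06) and NLGN4X from 544 ± 79.2 to 260 ± 76.4 (-1.09, adjusted p = 0.00171). Of 48 genes for transmitter synthesis, breakdown and transport, 28 were tested and 14 called, 8 higher and 6 lower, with a median of -0.03. MAOA, which breaks down monoamines, rose from 97.4 ± 34.2 to 667 ± 25.2 (2.82, adjusted p = 7.75e-06), and CHAT, which makes acetylcholine, from 54.6 ± 9.50 to 181 ± 23.1 (1.72, adjusted p = 0.000156). SHMT2, a mitochondrial serine and glycine enzyme, fell from 9147 ± 236 to 6133 ± 163 (-0.58, adjusted p = 3.86e-05), the same as the median of its neighbors. SLC17A8, a vesicular glutamate transporter, fell from 183 ± 35.7 to 20.7 ± 9.33 (-3.14, adjusted p = 4.53e-05).

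Of 40 genes for other transmitter receptors, 17 were tested and 5 called, 3 higher and 2 lower, with a median of 0.12. ADRA2C, an adrenergic receptor, rose from 137 ± 41.2 to 533 ± 74.8 (log2 fold change 1.99, adjusted p = 5.40e-05), and P2RY1, an ADP receptor, from 33.4 ± 7.89 to 93.5 ± 16.3 (1.47, adjusted p = 0.00186). HRH3, a histamine receptor, fell from 88.5 ± 14.3 to 4.66 ± 2.15 (-4.06, adjusted p = 4.20e-05), and OPRD1, the delta opioid receptor, from 1510 ± 134 to 1168 ± 94.1 (-0.37, adjusted p = 0.0108). The called shares of these lists were 47.8%, 45.7%, 50% and 29.4%, against 37.7% over all genes tested.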

How the data were processed

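Total RNA of parental and onvansertib-resistant H526 cells was sequenced by the authors in 3 libraries per group, prepared with the NEBNext Ultra RNA kit, which does not mark strand. The authors trimmed reads with Trimmomatic 0.38, aligned and quantified them with RSEM 1.3.1 on GRCh38 with Gencode v43, and normalized with DESeq2 1.30.0, and the deposited values are this normalized signal. Between 47.1% and 62.2% of values under 10 in a library were whole multiples of 1 read within a tolerance of 0.05, so whole reads were not recovered, no count test was run and a limma fit was used in its place. Symbols came from Gencode v44 for 62639 of 62710 rows, and 47 repeated pseudoautosomal rows were left out. The 16347 genes averaging 10 or more were put on the log2(value + 1) scale and fitted by limma 3.58.1 under R 4.3.3, where eBayes used the trend with intensity and p-values were adjusted by the method of Benjamini and Hochberg over all of them, with a threshold of 0.05. Log2 fold changes on this scale understate the change of low genes. A number of fold printed beside a log2 fold change is the ratio of the group means with nothing added. The 2 measures therefore differ. Nothing states that the 3 extractions were separate cultures, so p-values measure the spread between these samples, which may be technical. With 3 against 3, an exact permutation test cannot go below p = 0.10. Promoters of 28 of the 35 tested members were found in the RefSeq table (GRCh38.p14). Levels per kb divide by the longest transcript. All members, apart from some that are not reported here, and the 2 listed genes with the smallest p in each direction per pathway list, are named. The members and lists were chosen with earlier results of these data known. As alternatives, the pseudocount was set to 0.1 or 10, the filter was dropped or raised to 50, and the others were median ratio scaling, quantile normalization, no trend, local median centring over 51 genes, and each library left out. The limma step was tested on simulated data. Python 3.11.15 and pandas 2.3.3 were used.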

Additional observations from a re-analysis of the deposited data

How the results depend on the processing

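Under 14 alternatives no tested member changed direction past the threshold, 16 of 24 called members kept the call wherever they were tested, and 8 lost it in at least 1 (CHRM4, DRD2, GABRA3, GRIA2, GRID1, GRIN2B, GRM2 and HTRA2). Of the 11 uncalled members, 3 passed in 1 setting each, CHRNA5 with local centring, GABBR2 with quantile normalization and HTR3E without the trend. The number of lower members was 9 at a minimum mean of 50, where fewer genes were tested. Without the trend 7 accessory genes were called, and at a minimum mean of 50, 3 other transmitter receptors, and the cause of the first was not tested. With 1 library left out, called members numbered 18 to 20, higher 8 to 10, lower 9 to 11, accessory genes 8 to 10, scaffold genes 13 to 18, transmitter genes 11 to 13 and other receptors 5 to 6. No paired analysis was possible because the labels give the groups no shared replicate numbers and do not say which parental and resistant extractions were made at the same time. Depth limited values under 3 reads, and members under a mean of 10 have no test.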
